A study of Mus musculus with 8 samples.

Results

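Histone acetyltransferases and the readers of acetylated histones stand opposite HDAC3, the deacetylase that the corepressors NCoR and SMRT bring to chromatin. Here 9 such genes are described in sorted mouse CD4+CD8+ double-positive thymocytes of mice with Hdac3 deleted in T lineage cells. They were taken by name: the acetyltransferase genes Ep300, Crebbp, Kat2a, Kat2b, Kat5, Hat1 and Ncoa3, and the reader genes Brd2 and Brd3. All 9 are listed under their own symbols, among 23278 gene entries, in each of 4 deposited tables, and all 9 were tested by the authors in every table. None of the 9 lies on a sex chromosome.

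The tables hold RNA sequencing values for 4 groups of 2 libraries (8 samples, C57BL/6): Hdac3KO DP2, WT DP2, Hdac3KO DP1 and WT DP1. Hdac3KO animals were Hdac3F/F with LCK-Cre, a Cre active in the T cell lineage, and WT controls were Hdac3+/+. The labels do not spell out whether the controls also carried Cre, and they give no age. All cells were sorted as GFP+, DP1 with low CD5 and low TCRβ, and DP2, the later point, with high CD5 and intermediate TCRβ, levels reached once T cell receptor (TCR) signalling has begun. Libraries were made from RNA pools, and nothing says whether the 2 libraries of a group came from separate animals. The deposited FPKM (fragments scaled to transcript length and to library size) is 1 value per gene and group, so no spread between libraries can be shown and the depth of each library is unknown. A gene was called at a q (the authors' adjusted p) of 0.05 or less, and those p-values measure only the spread between these libraries. A recomputed q is the Benjamini-Hochberg value over all tested genes of a normal test. Its SE, also given with each log2 change, was derived from the p in the tables, except where the deposited statistic is named as its source.

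Acetyltransferases move an acetyl group from acetyl-CoA to lysines of histones and other proteins, and deacetylases such as HDAC3 remove it. p300 (Ep300) and CBP (Crebbp) acetylate enhancers and promoters and bind many transcription factors. GCN5 (Kat2a) and PCAF (Kat2b) are alternative catalytic subunits of the SAGA and ATAC complexes, and TIP60 (Kat5) is that of the NuA4 complex. NCOA3 binds active nuclear receptors and brings p300 and CBP to them, where NCoR and HDAC3 sit on the unliganded receptor. HAT1 acetylates newly made histone H4 before it enters chromatin. BRD2 and BRD3 belong to the BET family, whose bromodomains bind acetylated lysines and help RNA polymerase II to elongate.

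Several facts of the whole tables bear on these genes. Hdac3 itself was at 15.4 FPKM in Hdac3KO DP2 against 29.7 in WT DP2 in the authors' deposited table (q = 0.0131). It was at 11.7 FPKM in Hdac3KO DP1 against 38.1 in WT DP1 in the authors' deposited table (q = 0.000879). Xist was at 139 FPKM in Hdac3KO DP2 and 0.243 in WT DP2, and the Y-linked Kdm5d at 0.322 and 34.6, in the authors' deposited table. DP1 gave the same pattern, with Xist at 208 FPKM in Hdac3KO and 0.0945 in WT in the authors' deposited table, so the sex of the animals and their genotype cannot be told apart in any genotype comparison below. WT DP1 stands apart by transcript length. In Hdac3KO against WT DP1 the median log2 change was 0.49 for genes of 8000 nucleotides or longer and -0.54 for genes under 2000. The medians for the same lengths were 0.17 and -0.69 in DP2 against DP1 of WT, 0.11 and 0.09 in Hdac3KO against WT DP2, and -0.10 and 0.04 in DP2 against DP1 of Hdac3KO. The DP-stage markers, among them Cd4, Cd8a, Cd8b1, Rag1, Rag2, Ptcra, Dntt, Cd3e and Cd1d1, were present in all groups. Their summed level was 7372 FPKM in Hdac3KO DP2 and 3322 in WT DP2, and 6900.3 in Hdac3KO DP1 and 6160 in WT DP1. Rag1 had the largest difference and did not pass, at 3006 FPKM in Hdac3KO DP2 and 671 in WT DP2 (q = 0.328). In DP1 it was at 2655 FPKM in Hdac3KO and 1199 in WT (q = 0.191). The median log2 change of the markers was 0.72 in DP2 and -0.05 in DP1, against 0.10 and -0.10 for all tested genes. Of these markers 4 were called higher in Hdac3KO DP2 and 0 in Hdac3KO DP1.

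The promoters of these genes differ in base composition, which is shown here for the paralogues Kat2a and Kat2b, whose DP1 changes had opposite signs, and for Brd2, the member with the largest change in DP2. RefSeq (GRCm38.p6, the assembly of mm10) has a promoter entry for 8 of the 9 members. In the 250 bases before the start, Brd2 held 27 CpG dinucleotides and Kat2a 11, against 6 in Kat2b and a median of 6 over all 32851 promoter entries. Each sequence is a stretch of at most 150 of these bases clear of annotated exons, written 5′ to 3′ on the gene's strand with capitals at each CpG. The dinucleotide occurs at least once in 92.1% of all entries.
Brd2, chr17:34122635-34122784, minus strand: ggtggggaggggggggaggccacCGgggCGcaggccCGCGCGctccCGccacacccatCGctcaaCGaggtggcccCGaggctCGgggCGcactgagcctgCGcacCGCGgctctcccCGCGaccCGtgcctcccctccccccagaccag
Kat2a, chr11:100712468-100712617, minus strand: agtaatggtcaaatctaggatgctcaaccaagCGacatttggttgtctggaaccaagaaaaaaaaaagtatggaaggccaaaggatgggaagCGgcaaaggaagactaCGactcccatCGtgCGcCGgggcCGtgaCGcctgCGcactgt
Kat2b, chr17:53566721-53566860, plus strand: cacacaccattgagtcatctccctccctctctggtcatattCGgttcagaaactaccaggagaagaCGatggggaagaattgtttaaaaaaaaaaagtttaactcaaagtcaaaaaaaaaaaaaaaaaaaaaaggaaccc
The Brd2 stretch holds 17 CpG in 150 bases, the Kat2a stretch 9 in 150 and the Kat2b stretch 2 in 140. G and C made up 73.6% of the 250 bases before the Brd2 start, 48.8% before Kat2a and 40.8% before Kat2b. Among the remaining members with an entry, the share was 84.0% for Crebbp, 73.2% for Ep300 and for Brd3, 67.6% for Hat1 and 55.2% for Kat5. Their CpG counts in the 250 bases were 44 for Crebbp, 37 for Brd3, 27 for Hat1, 25 for Ep300 and 15 for Kat5. For Crebbp, Ep300 and Hat1 all 250 of these bases lie in annotated exons, so their values describe transcribed sequence. Exons also cover 143 of the 250 bases for Kat5, 72 for Brd3, 55 for Kat2b, 27 for Brd2 and 0 for Kat2a. The Brd3 start used here lies 275 bases from that of the deposited locus. A relation of base composition before the start to the changes was not tested.

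Kat2a was the lowest of the members in every group. Brd2 and Crebbp led in Hdac3KO DP2 with 105 and 79.4 FPKM, and Kat2a stood at 8.21, in the authors' deposited table. The same 2 genes led in WT DP2 with 52.3 and 50.8 FPKM, beside Hat1 at 50.7, in the authors' deposited table. In Hdac3KO DP2 Hat1 stood at 25.9 FPKM, below Ep300, Kat2b, Ncoa3 and Brd3, which lay between 28.7 and 35.3 in the authors' deposited table. With 1 value per group, neighbours in these orders cannot be parted by any spread. FPKM was normalized within each table only. The same group's values in the stage table differed by a median factor of 0.908 (Hdac3KO DP2), 0.963 (WT DP2), 1.001 (Hdac3KO DP1) and 1.13 (WT DP1) from those in the genotype table.

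**Figure D1:**
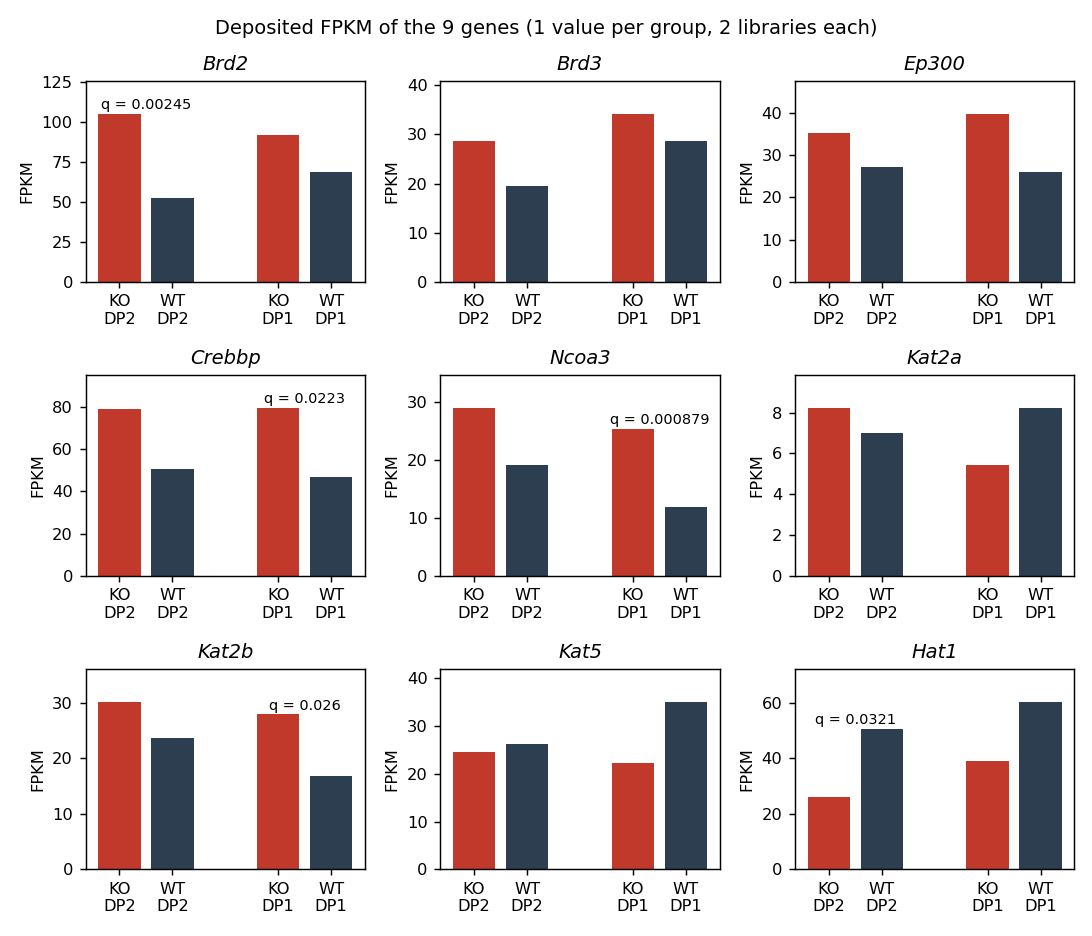
Deposited FPKM of each gene (y axis, linear from 0, own scale per panel) in Hdac3KO and WT of DP2 and of DP1, from the 2 genotype tables; each bar is the 1 value deposited for a group of 2 libraries, with q printed where it is 0.05 or less. Brd2 is at 105 FPKM in Hdac3KO DP2 against 52.3 in WT DP2, and Hat1 at 25.9 against 50.7.

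In DP2, the comparison asked which of these genes depend on Hdac3 once TCR signalling has begun. Brd2 rose and Hat1 fell in Hdac3KO, and the other 7 did not pass. That makes 2 of 9 members called, 1 in each direction, where 10.8% of all 10674 tested genes were called in this table, 6.44% higher and 4.32% lower. The median log2 change of the members was 0.38, against 0.10 for all tested genes, and 7 of the 9 had a positive sign.

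Brd2 was at 105 FPKM in Hdac3KO DP2 and at 52.3 in WT DP2 in the authors' deposited table, 2.0 times as high. Its log2 change was 1.0 ± 0.26, and q was 0.00245 in the authors' deposited table. Of the tested genes 5.91% had a change as high or higher. With the trend on GC content removed, this change was 0.69 (recomputed q = 0.0709) and no longer passed, nor did it with a normal p of the deposited statistic (recomputed q = 0.367). Part of H2-DMa lies on the opposite strand within the Brd2 locus, and whether reads were counted by strand is not given. H2-DMa stood at 3.65 FPKM in Hdac3KO DP2 and 8.16 in WT DP2 in the authors' deposited table, and did not pass (q = 0.212). The part of its reads in the Brd2 change was not tested. Brd3 did not pass, at 28.7 FPKM in Hdac3KO DP2 and 19.5 in WT DP2 in the authors' deposited table (0.56 ± 0.23, q = 0.107).

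Hat1 was at 25.9 FPKM in Hdac3KO DP2 and 50.7 in WT DP2 in the authors' deposited table, which leaves 51.1% of the WT value. Its log2 change of -0.97 ± 0.33 had q = 0.0321 in the authors' deposited table. Relative to the length trend the change was -1.05, and the call held. Rbbp7, which encodes the histone-binding partner of HAT1, fell to 50.3 FPKM in Hdac3KO DP2, against 116 in WT DP2, in the authors' deposited table (-1.20 ± 0.39, q = 0.0234). Rbbp7 is X-linked, and sex and genotype cannot be told apart.

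The p300 pair and the nuclear receptor coactivator had positive changes in DP2 that did not pass. Crebbp was at 79.4 FPKM in Hdac3KO DP2 and 50.8 in WT DP2 in the authors' deposited table (0.64 ± 0.25, q = 0.0716). Ncoa3 was at 29.0 FPKM in Hdac3KO DP2 and 19.2 in WT DP2 in the authors' deposited table (0.60 ± 0.23, q = 0.0760). For Ep300 the values were 35.3 FPKM in Hdac3KO DP2 and 27.2 in WT DP2 in the authors' deposited table (0.38 ± 0.23, q = 0.339). The 3 smallest changes were those of the catalytic subunits of SAGA and NuA4. Kat2b was at 30.1 FPKM in Hdac3KO DP2 and 23.7 in WT DP2, and Kat2a at 8.21 and 6.99, in the authors' deposited table (q = 0.428 and 0.695). Kat5 was at 24.6 FPKM in Hdac3KO DP2 and 26.3 in WT DP2 in the authors' deposited table (q = 0.878).

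In DP1, before strong TCR signalling, the 3 called members were all higher in Hdac3KO: Ncoa3, Crebbp and Kat2b. The background in this table was 23.6% of 10511 tested genes, 10.7% higher and 12.9% lower. The median change of the members was 0.43, against -0.10 for all tested genes, with 6 positive and 3 negative signs. With a normal p of the deposited statistic none of these 3 passed (recomputed q from 0.0659 to 0.317), and Hat1 alone was called.

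Ncoa3 was at 25.5 FPKM in Hdac3KO DP1 and 11.9 in WT DP1 in the authors' deposited table, a 2.13-fold difference. Its log2 change was 1.09 ± 0.27, where the SE is an upper bound because p is at its smallest value of 5e-05 in the authors' deposited table (q = 0.000879). Of all tested genes 6.29% had a change as high or higher. Removing the length trend took the change to 0.74 (recomputed q = 0.0425), and it was the 1 call of this comparison that this setting left among the members. The other p160 coactivator genes did not pass, Ncoa1 at 14.02 FPKM in Hdac3KO DP1 and 10.3 in WT DP1, and Ncoa2 at 19.1 and 14.8, in the authors' deposited table (q = 0.187 and 0.291).

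Crebbp rose to 79.6 FPKM in Hdac3KO DP1, against 47.0 in WT DP1, in the authors' deposited table (0.76 ± 0.26, q = 0.0223). Its transcript of 10820 nucleotides is at least as long as those of 98.5% of the tested genes, and genes of that length had a trend of 0.53 in this comparison. What remained was 0.23 (recomputed q = 0.621). Ep300, with 9566 nucleotides, was at 39.6 FPKM in Hdac3KO DP1 and 25.9 in WT DP1 in the authors' deposited table (0.61 ± 0.25, q = 0.0596), and 0.14 remained beside its trend of 0.47. The median gene lay at -0.11 in this table and at 0.12 in that of DP2, and relative to it the Ep300 change of 0.72 in DP1 passed (recomputed q = 0.0237). The part that the length trend has in these changes was not tested beyond this. Crebbp was more abundant than its paralogue in every group, 2.25 times in Hdac3KO DP2, 1.87 in WT DP2, 2.01 in Hdac3KO DP1 and 1.81 in WT DP1.

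Kat2b rose to 27.9 FPKM in Hdac3KO DP1, against 16.9 in WT DP1, in the authors' deposited table (0.73 ± 0.26, q = 0.0260). With the length trend removed its change was 0.63 and missed the threshold (recomputed q = 0.0756). The paralogue Kat2a went the other way without passing, at 5.45 FPKM in Hdac3KO DP1 and 8.21 in WT DP1 in the authors' deposited table (-0.59 ± 0.28, q = 0.102). The ratio of Kat2b to Kat2a FPKM was 5.12 in Hdac3KO DP1 and 2.06 in WT DP1, and 3.67 in Hdac3KO DP2 and 3.39 in WT DP2. WT DP1 thus had the lowest of these ratios and Hdac3KO DP1 the highest. No test of these ratios was made.

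Kat5 and Hat1, the members with the shortest transcripts (2245 and 1899 nucleotides), had negative changes in DP1 that missed the threshold. Kat5 was at 22.3 FPKM in Hdac3KO DP1 and 34.97 in WT DP1 in the authors' deposited table (-0.65 ± 0.26, q = 0.0534). Hat1 was at 38.9 FPKM in Hdac3KO DP1 and 60.2 in WT DP1 in the authors' deposited table (-0.63 ± 0.27, q = 0.0721). Genes of like length had a trend of -0.33 at the length of Kat5 and -0.40 at that of Hat1, which leaves -0.32 and -0.23. The Kat5 locus overlaps Rnaseh2c on the opposite strand, which was at 45.0 FPKM in Hdac3KO DP1 and 91.2 in WT DP1 in the authors' deposited table (q = 0.00352). Neither BET gene passed. In the authors' deposited table Brd2 was at 92.0 FPKM in Hdac3KO DP1 and 68.5 in WT DP1 (q = 0.207), and Brd3 at 34.1 and 28.8 (q = 0.503). With the trend on GC content removed, the Brd2 change in DP1 was 0.70 and passed (recomputed q = 0.0301). In DP2 it was 0.69 under that setting and did not pass.

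**Figure D2:**
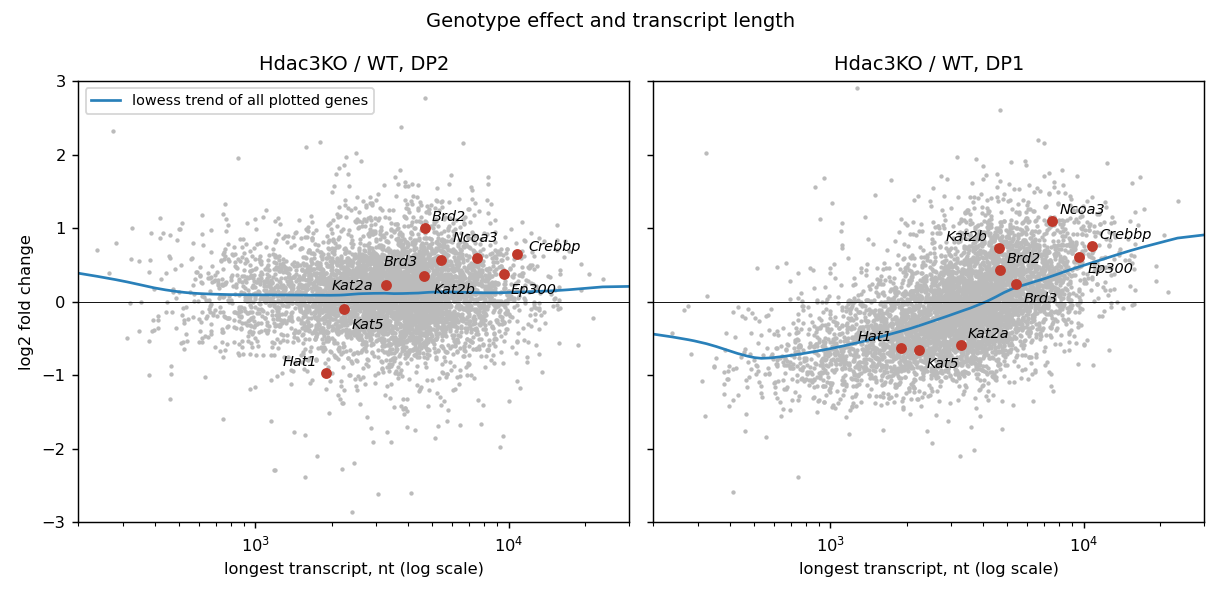
Log2 fold change of Hdac3KO over WT (y axis) against the length of the longest annotated transcript (x axis, log scale) in DP2 (left) and DP1 (right); grey points are tested genes at 10 FPKM or more in each group, the line is their lowess trend, red points are the members and the y axis is limited to -3 to 3. In DP1 the trend climbs with length and Crebbp and Ep300 lie near it, 0.23 and 0.14 above, while Ncoa3 and Kat2b lie 0.74 and 0.63 above it; in DP2 the trend is nearly flat.

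Whether the genotype effect differed between DP2 and DP1 was tested by subtracting the DP1 log2 change from the DP2 one. None of the 9 members passed, where 2.08% of 10144 genes did (0.897% with a positive and 1.18% with a negative difference), and 1 member, Kat2a, had an unadjusted p under 0.05. Kat2a had a change of 0.23 in DP2 and -0.59 in DP1, a difference of 0.82 ± 0.40 (95% interval 0.04 to 1.6, recomputed q = 0.240). For Brd2 the changes were 1.0 in DP2 and 0.43 in DP1, a difference of 0.57 ± 0.36 (95% interval -0.13 to 1.28, recomputed q = 0.379). For Ncoa3 they were 0.60 in DP2 and 1.09 in DP1, a difference of -0.50 ± 0.35 (95% interval -1.19 to 0.20, recomputed q = 0.457). The intervals of Brd2 and Ncoa3 include 0 and reach beyond 1 in size. Taken through the stage tables (stage effect in Hdac3KO minus that in WT), the same question gave 0 of 9 members passing, where 3.13% of 9969 genes did (2.07% positive and 1.06% negative), and 2 with an unadjusted p under 0.05, Kat2a and Brd2. By the deposited q, Brd2 and Hat1 are called in DP2 alone and Ncoa3, Crebbp and Kat2b in DP1 alone. With the GC trend removed Brd2 is called in DP1 and not in DP2. The tests of the difference do not show that the effects differ between stages.

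The stage comparisons use the same libraries and asked how the genes differ in DP2 relative to DP1. In Hdac3KO cells 0 of 9 members were called by the authors' Cuffdiff test, where 6.43% of 10231 tested genes were (1.78% higher and 4.65% lower), and 1 member had an unadjusted p under 0.05. That member was Hat1, at 23.6 FPKM in Hdac3KO DP2 and 39.2 in Hdac3KO DP1 in the authors' deposited table (-0.73 ± 0.28, q = 0.0979). Brd2, at 94.8 and 91.4 FPKM, and Ncoa3, at 26.3 and 25.4, were close to level between Hdac3KO DP2 and Hdac3KO DP1 in the authors' deposited table (q = 0.958 for both). Kat2b was likewise at 27.4 FPKM in Hdac3KO DP2 and 28.1 in Hdac3KO DP1, and Kat5 at 22.3 and 22.2, in the authors' deposited table (q = 0.975 and 0.995). The remaining members lay between -0.38 (Brd3) and 0.46 (Kat2a), with q from 0.350 to 0.852 in the authors' deposited table.

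In WT cells 1 of 9 members was called, and it fell, where 22.3% of 10851 tested genes were called, 5.56% higher and 16.8% lower. Brd3 was at 18.7 FPKM in WT DP2 and 32.7 in WT DP1 in the authors' deposited table (-0.81 ± 0.28, q = 0.0264). The median gene of this table lay at -0.33, and relative to it the Brd3 change was -0.48 and did not pass (recomputed q = 0.249). It also missed the threshold with the trend on length (recomputed q = 0.0666) or GC content (0.528) removed and with a normal p of the deposited statistic (0.284). Brd2 was at 49.7 FPKM in WT DP2 and 78.3 in WT DP1 in the authors' deposited table (-0.65 ± 0.29, q = 0.0848). Kat5 had nearly the same change, at 25.2 FPKM in WT DP2 and 39.9 in WT DP1 in the authors' deposited table (-0.67 ± 0.29, q = 0.0806). Ncoa3 was at 18.1 FPKM in WT DP2 and 13.6 in WT DP1 in the authors' deposited table (0.41 ± 0.28, q = 0.295), and relative to the median gene its change of 0.74 passed (recomputed q = 0.0488). Crebbp, Ep300, Kat2b, Hat1 and Kat2a did not pass either, with log2 changes of -0.14, -0.17, 0.27, -0.45 and -0.50.

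**Figure D3:**
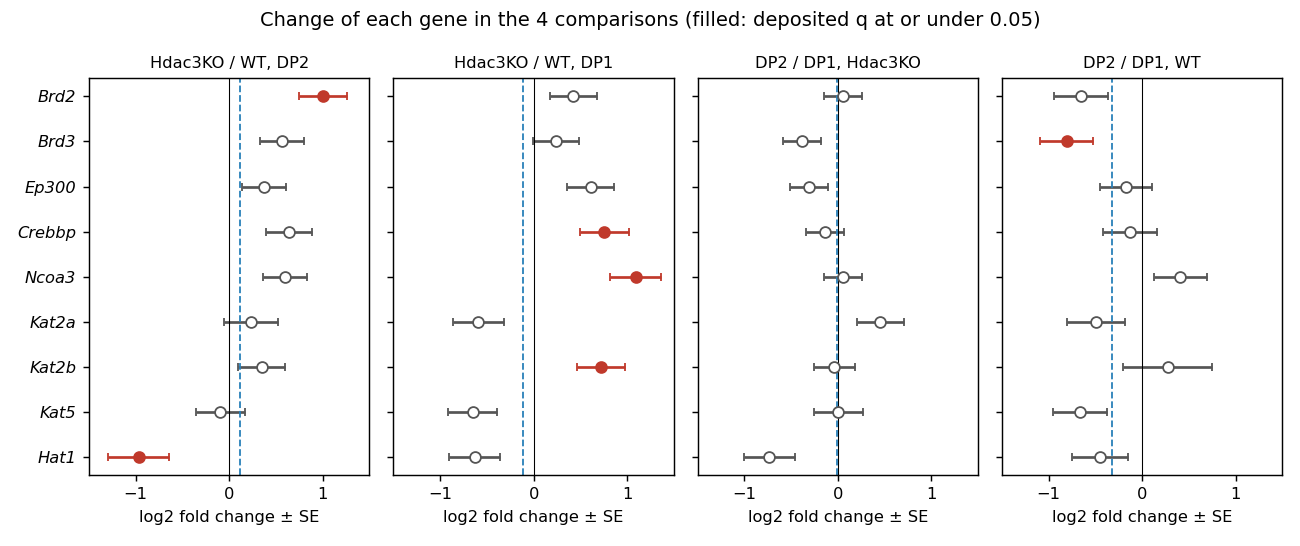
Log2 fold change with its SE (x axis) of each gene in the 4 comparisons; filled points have a deposited q of 0.05 or less, the solid line is 0 and the dashed line the median change of genes at 10 FPKM or more in each group. Brd2 is at 1.0 in Hdac3KO over WT of DP2, at 0.05 in DP2 over DP1 of Hdac3KO and at -0.65 in DP2 over DP1 of WT; these comparisons share groups.

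Around the members, 10 lists of partner and related genes hold 189 symbols, all found in the tables. In Hdac3KO DP2 13 of the 180 tested were higher and 5 lower, 10% in all against the 10.8% of all genes. In Hdac3KO DP1 the counts were 28 and 18 of 179, 25.7% against 23.6%. In DP2 relative to DP1, 3 rose and 11 fell of 179 in Hdac3KO, 7.82% against the 6.43% of all genes, and 12 rose and 41 fell of 180 in WT, 29.4% against 22.3%.

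BET partners and elongation factors gave 5 higher and 0 lower of 25 in Hdac3KO DP2, with a median of 0.45 against 0.10 for all tested genes. The share called was 20%, against 10.8% of all tested genes, and in DP1 32% against 23.6%. Among the 5 called in DP2 were Ccnt1, Aff1, Supt5h and Supt4h1, which encode elongation factors or their partners. Supt4h1, a subunit of the elongation factor DSIF, had the largest change at 311 FPKM in Hdac3KO DP2 and 80.01 in WT DP2 in the authors' deposited table (1.958 ± 0.48, q = 0.00134). Relative to the median gene, and also with the length trend removed, 2 of the 25 were higher, and Supt4h1 was 1 of them under each. In DP1 6 were higher and 2 lower, with Brdt, a BET gene best known from testis, at 6.23 FPKM in Hdac3KO DP1 and 2.42 in WT DP1 in the authors' deposited table (1.36 ± 0.34, q = 0.000879). Rdbp, a subunit of the pausing factor NELF, fell to 8.57 FPKM in Hdac3KO DP1, against 19.7 in WT DP1, in the authors' deposited table. Without the length trend its change of -1.20 became -0.73 and no longer passed (recomputed q = 0.0767), and the DP1 counts became 4 and 0. In DP2 relative to DP1, 1 rose and 4 fell in Hdac3KO, and 1 rose and 9 fell in WT. This is 20% called in Hdac3KO and 40% in WT, against 6.43% and 22.3% of all tested genes. The WT count of 9 became 3 relative to the median gene and also without the length trend. E2f2, a cell cycle activator, fell in both, to 11.4 FPKM in Hdac3KO DP2, against 47.5 in Hdac3KO DP1, and to 15.7 in WT DP2, against 72.5 in WT DP1, in the authors' deposited tables.

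Other bromodomain and YEATS readers gave 11 higher and 0 lower of 28 in Hdac3KO DP1, with a median of 0.59 against -0.10 for all tested genes. That is 39.3% called, against 23.6% of all tested genes. Trim33, at 20.2 FPKM in Hdac3KO DP1 and 6.86 in WT DP1 in the authors' deposited table, had the largest change (1.56 ± 0.38, q = 0.000879). Once the length trend was taken out, 4 were higher. In DP2 2 were higher and 2 lower, 14.3% against 10.8% of all tested genes. Relative to the median gene, and also without the length trend, these counts became 1 and 3. Baz2a, a remodeller subunit of the nucleolus, rose to 64.6 FPKM in Hdac3KO DP2, against 30.8 in WT DP2, and Atad2, a chromatin ATPase of replicating cells, fell to 29.0 against 57.2, in the authors' deposited table. Atad2 also fell with stage in Hdac3KO, to 26.4 FPKM in Hdac3KO DP2, against 91.4 in Hdac3KO DP1, in the authors' deposited table, the 1 call of the list there. In WT 4 rose and 4 fell in DP2 relative to DP1, which became 10 and 1 once centred on the median gene, or 2 and 3 without the length trend.

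Genes of the HAT1 pathway and histone chaperones, which carry new histones to replicating DNA, gave 0 higher and 1 lower of 15 in Hdac3KO DP2, 0 and 5 in Hdac3KO DP1, 0 and 5 in DP2 relative to DP1 in Hdac3KO, and 0 and 8 in WT. Over all tested genes 4.32%, 12.9%, 4.65% and 16.8% were lower in these comparisons. Without the length trend 3 were lower in Hdac3KO DP1 and 6 in WT DP2 relative to WT DP1. Their medians were -0.33, -0.58, -0.60 and -0.84 in that order, against 0.10, -0.10, 0.01 and -0.27 for all tested genes. Chaf1a, the large subunit of the assembly factor CAF-1, fell to 4.71 FPKM in Hdac3KO DP2, against 22.0 in Hdac3KO DP1, in the authors' deposited table (-2.22 ± 0.55, q = 0.00151). In WT it fell to 7.19 FPKM in DP2, against 37.4 in DP1, in the authors' deposited table (-2.38 ± 0.59, q = 0.000835). Hat1 had a negative sign in all 4 comparisons as well, passing in Hdac3KO against WT of DP2 only.

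Of the subunits of the acetyltransferase complexes 3 were called in DP2. By list this was 4% (SAGA and ATAC), 0% (NuA4) and 11.1% (MOZ, HBO1, MSL and NSL), against 10.8% of all tested genes. SAGA and ATAC subunits gave 1 higher and 0 lower of 25 in Hdac3KO DP2, namely Taf12, at 33.7 FPKM in Hdac3KO DP2 and 17.9 in WT DP2 in the authors' deposited table (recomputed q = 0.0519 relative to the median gene). None of the 16 NuA4 subunits was called there by the authors' Cuffdiff test, and 0 had an unadjusted p under 0.05. Subunits of the MOZ, HBO1, MSL and NSL complexes gave 2 higher and 0 lower of 18, with Brd1, a scaffold of the HBO1 complex, at 70.2 FPKM in Hdac3KO DP2 and 32.2 in WT DP2 in the authors' deposited table (1.13 ± 0.28, q = 0.00134). In Hdac3KO DP1 the counts were 2 higher and 2 lower for SAGA and ATAC, or 16% called, against 23.6% of all tested genes. They were 1 and 3 for NuA4 (25%), and 3 and 2 for the MYST complexes (27.8%). Without the length trend they were 0 and 1, 1 and 0, and 3 and 2. Epc2, a NuA4 scaffold, rose to 22.1 FPKM in Hdac3KO DP1, against 8.52 in WT DP1, and Ruvbl1, an ATPase of the same complex, fell to 34.7 against 70.5, in the authors' deposited table. The Ruvbl1 change of -1.02 became -0.57 without the length trend and no longer passed (recomputed q = 0.111). In DP2 relative to DP1 of WT these lists gave 1 higher and 5 lower, 1 and 6, and 1 and 3, while no subunit of the 3 lists was called by the authors' Cuffdiff test in Hdac3KO, where 2 had an unadjusted p under 0.05. The WT shares called were 24%, 43.8% and 22.2%, against 22.3% of all tested genes. Relative to the median gene the WT counts became 1 and 1, 1 and 1, and 1 and 0, and without the length trend 0 and 1, 1 and 1, and 1 and 1.

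The remaining acetyltransferases gave 1 higher and 0 lower of 17 in Hdac3KO DP2, which was Gtf3c4, and 2 and 1 in Hdac3KO DP1. These are 5.88% and 17.6% called, against 10.8% and 23.6% of all tested genes. Esco1, a cohesin acetyltransferase, rose to 45.4 FPKM in Hdac3KO DP1, against 17.6 in WT DP1, and Elp3, the catalytic subunit of Elongator, fell to 11.1 against 20.97, in the authors' deposited table. In WT 1 rose and 1 fell in DP2 relative to DP1, and none of the 17 was called by the authors' Cuffdiff test in Hdac3KO, where 3 had an unadjusted p under 0.05. Cofactors of p300 and CBP gave 0 and 0 of 17 in Hdac3KO DP2 (3 with an unadjusted p under 0.05), 1 and 1 in Hdac3KO DP1, 1 and 0 in DP2 relative to DP1 in Hdac3KO, and 1 and 2 in WT. Maml2, a Notch coactivator that brings p300, rose in the last 3, to 5.48 FPKM in Hdac3KO DP1, against 2.07 in WT DP1, and with stage to 13.4 in Hdac3KO DP2, against 5.50 in Hdac3KO DP1, in the authors' deposited tables. Genes that supply acetyl-CoA gave 1 and 0 of 11 in Hdac3KO DP2, 0 and 1 in Hdac3KO DP1, 1 and 0 in DP2 relative to DP1 in Hdac3KO, and 0 and 2 in WT. Acly, the main source of nuclear acetyl-CoA, was not among them. In the same order of comparisons, 0%, 11.8%, 5.88% and 17.6% of the cofactors were called. For the acetyl-CoA genes the shares were 9.09%, 9.09%, 9.09% and 18.2%. Over all tested genes they were 10.8%, 23.6%, 6.43% and 22.3%. For the p300 and CBP cofactors the WT stage counts became 2 and 0 once centred on the median gene, or 1 and 0 without the length trend, and for acetyl-CoA supply the calls of both genotype comparisons were lost under each.

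Lymphoid genes known to be sensitive to BET inhibitors went both ways. In Hdac3KO DP2 1 was higher and 2 lower of 8, with Bcl6 at 118 FPKM in Hdac3KO DP2 and 48.8 in WT DP2, and Il7r at 0.653 and 10.2, in the authors' deposited table. This was 37.5% of the list in DP2, against 10.8% of all tested genes. In Hdac3KO DP1 2 were higher and 1 lower of 7, 42.9% against 23.6%. Myc was the lower gene, at 2.08 FPKM in Hdac3KO DP1 and 5.70 in WT DP1 in the authors' deposited table (-1.45 ± 0.36, q = 0.000879). Without the length trend the DP1 counts became 1 higher and 2 lower. In DP2 relative to DP1, 0 rose and 1 fell in Hdac3KO, and 2 rose and 1 fell in WT, the 1 being lost under both other scalings.

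**Figure D4:**
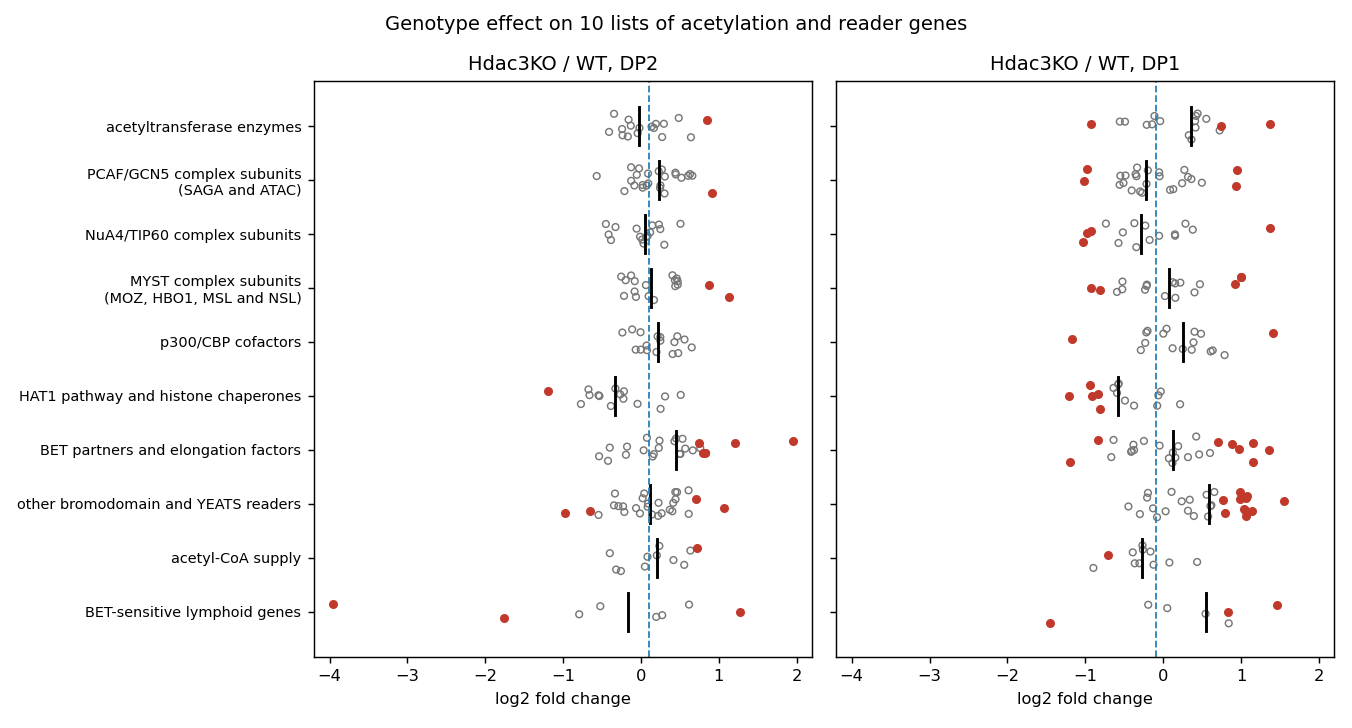
Log2 fold change of Hdac3KO over WT (x axis) for each tested gene of the 10 lists in DP2 (left) and DP1 (right); filled points have a deposited q of 0.05 or less, black bars are list medians and the dashed line is the median of all tested genes. In DP1 11 of 28 bromodomain and YEATS readers are called higher and 5 of 15 genes of the HAT1 pathway and histone chaperones lower.

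Markers of other cells were low throughout. Summed levels ran from 5.74 to 9.77 FPKM for B cells, from 6.49 to 22.5 for myeloid and dendritic cells, from 0.642 to 2.16 for NK and γδ T cells, from 6.27 to 12.6 for thymic epithelium and from 0.851 to 2.69 for erythroid cells. Myeloid and dendritic markers stood at 22.5 FPKM in Hdac3KO DP2 and 8.70 in WT DP2, and at 13.8 in Hdac3KO DP1 and 6.49 in WT DP1. Itgam was their 1 called gene in both, with log2 changes of 3.29 in DP2 and 1.995 in DP1. It alone gave 15.7 FPKM of the sum in Hdac3KO DP2 and 9.58 in Hdac3KO DP1. Cd68, the other tested gene of this list, did not pass. It was at 3.43 FPKM in both groups of DP2 (q = 0.988). In DP1 it was at 3.61 FPKM in Hdac3KO and 2.98 in WT (q = 0.698), in the authors' deposited tables. In Hdac3KO DP1 1 epithelial and 1 erythroid marker were called higher as well. Mature single-positive markers summed to 81.3 FPKM in Hdac3KO DP2 and 93.6 in WT DP2, and to 65.8 in Hdac3KO DP1 and 78.6 in WT DP1. Double-negative stage markers summed to 50.4 FPKM in Hdac3KO DP2 and 240.0 in WT DP2, where Hhex alone gave 221, and to 30.4 in Hdac3KO DP1 and 54.0 in WT DP1. Il2ra of the same list went the other way, at 26.3 FPKM in Hdac3KO DP2 and 4.41 in WT DP2 (q = 0.00134), and 19.6 in Hdac3KO DP1 and 3.49 in WT DP1 (q = 0.000879), in the authors' deposited tables. The part of any of these cells in the member results was not tested, and in bulk samples fewer cells of a type and less RNA per cell cannot be told apart.

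For the 5 members called in a genotype table, the genes most alike in pattern were sought by Euclidean distance over the 4 log2 changes among 5268 genes with at least 10 FPKM throughout. The 4 changes share groups, so they are fewer than 4 independent points. Nearest to Brd2 were Prkd2 (distance 0.06) and Cyfip2 (0.09), and nearest to Hat1 were Cmpk1 (0.09) and 1500011H22Rik (0.13). Crebbp lay nearest to Irf2 (0.07) and Phf12 (0.09). Trat1 (0.07) and Kdm5a (0.08) were nearest to Ncoa3, and Ccng1 (0.05) and Arid4a (0.06) to Kat2b.

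On mm10 the members lie on 6 chromosomes. Brd2 spans 34112023 to 34122634 and Kat2b 53566861 to 53672720 on chromosome 17. Chromosome 2 holds Brd3 (27445579 to 27507662), Hat1 (71388958 to 71441622) and Ncoa3 (165992636 to 166073242). Ep300 lies on chromosome 15 (81585351 to 81652077), Crebbp on chromosome 16 (4081328 to 4213997), Kat2a on chromosome 11 (100704746 to 100712465) and Kat5 on chromosome 19 (5603014 to 5610237).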

How the data were processed

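RNA from 8 sorted thymocyte samples was made into stranded libraries after depletion of ribosomal RNA, per the labels' protocols. Cuffdiff 2.1.1, TopHat2 2.0.11, Trimmomatic 0.32 and the mm10 build are listed in the submitters' processing notes; settings and the gene annotation are not given in the sources used here. The authors' deposited FPKM are 1 value per group, normalized within each of 4 tables. The deposited test statistic is a score, and the deposited p-value and q-value come with it; q matched a Benjamini-Hochberg adjustment over the genes tested to within 5.3e-07. Log2 fold changes were computed from the FPKM, since part of that deposited column was damaged, and SE is the size of the change over the normal quantile of the deposited p. It is an upper bound at the smallest p. Trends on length and GC content (longest GENCODE M21 transcript, lowess fraction 0.3, genes at 10 FPKM or more in each group) were removed as alternatives, with statsmodels 0.14.6, scipy 1.17.1 and pandas 2.3.3. Recomputed q values of those alternatives and of the difference between effects use normal tests with Benjamini-Hochberg adjustment over all tested genes, a procedure tested on simulated data. Simulated data cannot show whether the SE derived from the deposited p is right for these libraries. With the deposited statistic in its place some calls changed, that of Brd2 in DP2 among them. Named genes are all members, and from each list the called gene with the largest change in each direction among those reaching 5 FPKM in either group; any further list gene, Ncoa1, Ncoa2 and the overlapping genes were chosen after their values were seen. Members and lists were chosen with earlier results of these data known. Depth per library is unknown, so no interval for counting error is given. Some genes of the lists are not reported here.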

Additional observations from a re-analysis of the deposited data

How the results depend on the processing

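The authors' tables give 1 value per group. No paired analysis was possible because of this, no library could be left out, and no group had samples to screen for outliers. Of 38 counts of called members under other settings 23 stayed within 1.5 times and 15 moved.
In Hdac3KO against WT of DP2, 2 members were called. This became 1 at a q of 0.01, with the GC trend removed or with a normal p of the deposited statistic, and 4 at a q of 0.10. In DP1, 3 became 1 at a q of 0.01, with the length trend removed or with the normal p, 6 at a q of 0.10 and 5 with the GC trend removed. The members gained without the GC trend were Ep300 and Brd2. For DP2 against DP1 of Hdac3KO, 0 became 1 at a q of 0.10 and with the normal p. In WT, 1 became 0 at a q of 0.01, with the length trend removed and with the normal p, and 3 at a q of 0.10; centred on the median gene the count stayed 1, but the member was Ncoa3 and not Brd3. The difference of the genotype effects stayed at 0 members under all 6 alternatives.
Of 342 single values with a test, 299 kept direction and side of the threshold, 15 newly passed, 15 no longer passed and 13 reversed, none of them called. The 36 values with a pseudocount of 1 FPKM, which have no test, moved by less than 1 SE. With the GC trend removed the reversed values were Kat2a at -0.0796 in Hdac3KO against WT of DP2, Kat2b at 0.001005, Kat5 at -0.0733 and Brd2 at -0.0454 for stage in Hdac3KO, and Ep300 at 0.30, Crebbp at 0.37 and Kat2a at 0.12 for stage in WT. With the length trend removed they were Kat5 at -0.0313 for stage in Hdac3KO, Hat1 at 0.11 for stage in WT, and Ep300 at 0.11 and Crebbp at 0.29 for the difference of effects. Centring turned Ep300 to 0.15 and Crebbp to 0.19 for stage in WT. The cause of these moves was not tested. Of 160 counts for the gene lists 42 moved.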
